A study of Rattus norvegicus with 9 samples.

Results

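The genes described here carry lipids or handle lipoproteins, and they are Apoe, Clu, Lcat, Lpl, Abca1, Abcg1, Lrp1, Fabp5 and Fabp7. They were taken by name from the deposited table of 34890 loci, and all 9 were found, each at 1 locus. RNA came from the ipsilateral side of the L3-L6 spinal cord of male wild-type Sprague Dawley rats in 3 groups of 3 samples, which the labels call biological replicates. Sham-operated rats given saline form the JA group, rats with spared nerve injury given saline form the SNI group, and rats with the injury that received paeoniflorin plus liquiritin, at the middle of 3 doses, form the PLM group. In this model of neuropathic pain the tibial and common peroneal nerves are tied and cut while the sural nerve is left intact. Saline or drug was given by gastric infusion for 21 days. The labels give 20.65 mg/ml paeoniflorin for all PLM samples and 3.98, 3.99 and 3.100 mg/ml liquiritin for PLM replicates 1, 2 and 3, while the methods of the study state 3.98 mg/ml for the group. The age of the rats is not given in the sources used here.

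Neurons and glia of the spinal cord exchange cholesterol and other lipids on lipoprotein particles that are made within the central nervous system, mainly by astrocytes. Apolipoproteins such as Apoe and Clu (clusterin, apolipoprotein J) form the protein part of these particles, ABC transporters load them with cholesterol, enzymes such as Lcat remodel them, and receptors such as Lrp1 take them up. Inside the cell, fatty acid-binding proteins carry the fatty acids.

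The values are TPM, which divides by gene length and gives every sample the same total, so levels can be set side by side between genes. How deeply each sample was sequenced cannot be read from TPM, so the depth is unknown and counting error is not given. By mean TPM over the 9 samples, Apoe was the most abundant of the 9 genes at 2934 TPM, rank 26 of all loci, and Clu followed at 610 TPM. Fabp7 (241 TPM) and Fabp5 (233 TPM) came next, and their order was not settled, since Fabp7 was the higher of the pair in 4 of 9 samples. Abcg1 (23.8 TPM), Lrp1 (19.5 TPM), Lcat (15.7 TPM) and Lpl (6.94 TPM) had ranges that overlapped from each gene to the next, but Lrp1 was above Lcat and Lcat above Lpl in 9 of 9 samples, and Abcg1 was above Lrp1 in 7 of 9. Abca1 was lowest, at 1.69 TPM. Apoe and Clu, Clu and Fabp7, Fabp5 and Abcg1, and Lpl and Abca1 had ranges over the 9 samples that did not overlap. Together the 9 genes took 0.504% to 0.525% of TPM in the SNI samples, 0.245% to 0.295% in the PLM samples and 0.315% to 0.568% in the JA samples.

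**Figure D1:**
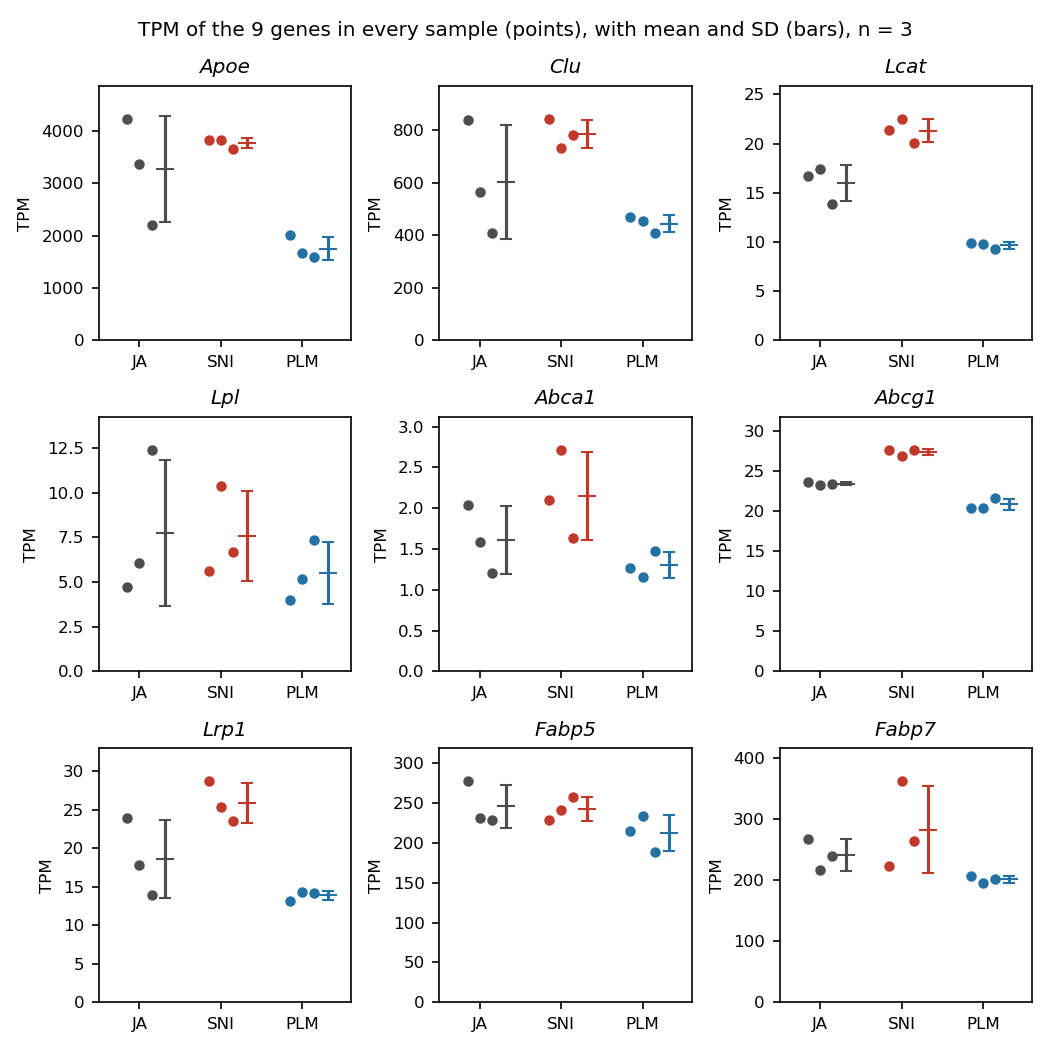
TPM of each of the 9 genes (vertical axes, each from 0) in the 3 JA, 3 SNI and 3 PLM samples, 1 point a sample, with the mean and SD of each group beside the points. For Apoe, Clu, Lcat, Lrp1 and Abcg1 the PLM points all lie below the SNI points, while for Fabp5 and Lpl the groups overlap and the JA points of Apoe, Clu, Lrp1 and Lpl are widely spread.

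Some facts of the whole series touch each result below. The 13 mitochondrial protein genes took 31.3% to 32.8% of TPM in PLM, 23.7% to 26.1% in SNI and 25.3% to 32.8% in JA, and a larger share of these genes lowers the TPM of all others. Over all genes tested, the median log2 difference was -0.21 in PLM versus SNI, 0.12 in SNI versus JA and -0.10 in PLM versus JA. Each comparison was therefore made on the values as deposited and again after each sample had been centred on its median gene. A list of 12 astrocyte markers had a mean log2(TPM + 1) of 6.31 to 6.62 in SNI, 5.05 to 5.29 in PLM, and 6.61, 6.17 and 5.45 in JA replicates 1, 2 and 3. Of these 12 markers 11 were lower in the PLM group by the limma call on values as deposited and 9 after centring. As deposited, the mean levels of the lists for microglia, oligodendrocytes and neurons overlapped between SNI and PLM, with 1 of 10, 0 of 8 and 0 of 8 genes called lower and none higher. Of all genes tested 13.6% were called lower and 0.246% higher. After centring none of the genes of these 3 lists was called (limma), where 0.814% of all genes tested were. The mean level after centring was higher in every PLM than in every SNI sample for microglia (4.99 to 5.07 in SNI, 5.20 to 5.34 in PLM), oligodendrocytes (10.61 to 10.67 and 10.79 to 10.86), endothelium (5.13 to 5.30 and 5.53 to 5.62) and blood (6.01 to 6.80 and 6.999 to 7.66). The 3 markers of oligodendrocyte precursors had a mean of 3.90 to 3.97 in SNI and 3.63 to 3.75 in PLM as deposited, which did not overlap, and of 3.799 to 3.83 and 3.74 to 3.84 after centring, which did, and none of the 3 was called (limma). In bulk tissue, fewer cells of a type and less RNA per cell cannot be told apart.

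The comparison of PLM with SNI asks how the drug pair changed the injured cord. Apoe, Clu, Lcat, Lrp1 and Abcg1 were lower in the treated rats, and their mean TPM in PLM was 0.465, 0.567, 0.453, 0.537 and 0.761 of that in SNI. No gene of the 9 was higher. Genes were called with limma on log2(TPM + 1), where the p-value after Benjamini-Hochberg adjustment over all 15474 genes tested was under 0.05, and by this rule 5 of the 9 were lower, where 13.6% of all genes tested were called lower and 0.246% higher. After centring, 3 of the 9 were lower, Apoe, Lcat and Lrp1, where 0.685% of all genes were. By the thresholds of the study, a log2 fold change beyond 1 in either direction with p under 0.05 before adjustment, Apoe and Lcat were called lower, 2 of 9 against 1.42% of all genes, and none of the 9 on median-centred values, against 0.659%. All 3 PLM samples lay below all 3 SNI samples for 7 of the 9 genes, all but Lpl and Fabp5, against 41.9% of all genes tested. Over the 9 genes the middle log2 difference was -0.46, or -0.21 after centring, where that of all genes was 0.04.

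Apoe, the main apolipoprotein of lipoprotein particles in the central nervous system, was at 3831.05, 3831.2 and 3662.28 TPM in SNI replicates 1, 2 and 3 and at 2010.1, 1663.33 and 1594.23 TPM in PLM. The groups did not overlap, and the lowest SNI sample stood far above the highest PLM sample. The mean fell from 3775 ± 97.5 to 1756 ± 223 TPM (SD, n = 3), where limma gave a log2 difference of -1.11 (SE 0.09, adjusted p = 0.00477). After centring on the sample medians, the log2 difference was -0.86 (SE 0.12, limma adjusted p = 0.0494), close to the threshold.

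Clu, an extracellular chaperone that also travels on lipoprotein particles, was at 841.13, 732.19 and 780.21 TPM in SNI and at 469.35, 454.26 and 409.81 TPM in PLM. All 3 PLM samples were low and the groups did not overlap. The mean fell from 785 ± 54.6 to 444 ± 31.0 TPM (SD, n = 3), where limma gave a log2 difference of -0.82 (SE 0.08, adjusted p = 0.00541). After centring on the sample medians, the log2 difference was -0.57, which was not past the threshold (limma adjusted p = 0.0678).

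Lcat, the enzyme that esterifies cholesterol on lipoprotein particles, had the smallest p-value of the 9 genes. It was at 21.37, 22.49 and 20.1 TPM in SNI and at 9.91, 9.8 and 9.29 TPM in PLM, and the replicates of each group lay close together. The mean fell from 21.3 ± 1.20 to 9.67 ± 0.331 TPM (SD, n = 3), where limma gave a log2 difference of -1.06 (SE 0.07, adjusted p = 0.00396). On median-centred values it was -0.82 (SE 0.08, limma adjusted p = 0.0263).

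Lrp1, an endocytic receptor that binds Apoe-bearing particles among many other ligands, was at 28.74, 25.45 and 23.52 TPM in SNI and at 13.22, 14.35 and 14.16 TPM in PLM, without overlap. The mean fell from 25.9 ± 2.64 to 13.9 ± 0.605 TPM (SD, n = 3), where limma gave a log2 difference of -0.85 (SE 0.09, adjusted p = 0.00686). The median-centred log2 fold change was -0.60 (SE 0.07, limma adjusted p = 0.0321). With each of the 6 samples left out in turn, Apoe, Clu, Lcat and Lrp1 were called in all 6 fits on values as deposited, with the largest adjusted p-value at 0.0356 (limma). On median-centred values with 1 sample left out, Apoe and Lcat were called only without PLM replicate 1 and Lrp1 in none of the 6 fits, while the log2 fold changes stayed between -0.997 and -0.77 for Apoe, between -0.87 and -0.76 for Lcat, and between -0.65 and -0.54 for Lrp1.

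The 2 transporters that export cholesterol differed in how far they could be measured. Abcg1, which moves cholesterol onto particles that already hold lipid, was at 27.56, 26.88 and 27.56 TPM in SNI and at 20.4, 20.38 and 21.61 TPM in PLM. Its groups were tight and did not overlap, and its mean fell from 27.3 ± 0.393 to 20.8 ± 0.704 TPM (SD, n = 3), where limma gave a log2 difference of -0.38 (SE 0.06, adjusted p = 0.0184). The adjusted p-value was above 0.05 without SNI replicate 1 (0.0659), SNI replicate 3 (0.0570), PLM replicate 1 (0.0768) or PLM replicate 2 (0.0798) (limma). After centring on the sample medians, the log2 difference was -0.13 (95% interval -0.27 to 0.0044, limma adjusted p = 0.307).

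Abca1, which passes cholesterol and phospholipid to lipid-poor apolipoproteins, was at 2.1, 2.71 and 1.64 TPM in SNI and at 1.27, 1.16 and 1.48 TPM in PLM. The groups did not overlap, but the SNI samples were spread and the level was low. The log2 fold change was -0.44 (95% interval -0.85 to -0.03, limma adjusted p = 0.116), and -0.19 on median-centred values (95% interval -0.58 to 0.20, limma adjusted p = 0.601). The median-centred value was -0.064 without SNI replicate 2 and -0.30 without SNI replicate 3.

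The fatty acid-binding proteins were measured at high TPM and neither was called. Fabp7, which is known from radial glia and astrocytes, was at 222.34, 361.44 and 263.08 TPM in SNI and at 206.06, 195.78 and 200.83 TPM in PLM. SNI replicate 2 was high, and SNI replicate 1 lay close to the PLM samples. The log2 fold change of Fabp7 was -0.46 (95% interval -0.86 to -0.06, limma adjusted p = 0.104), and -0.21 on median-centred values (95% interval -0.65 to 0.23, limma adjusted p = 0.608). Without SNI replicate 2 it was -0.27, and -0.016 on median-centred values. Without SNI replicate 1 it was -0.62, and -0.39 on median-centred values. Fabp5, a carrier of fatty acids found in many cell types, was at 228.53, 240.69 and 257.84 TPM in SNI and at 214.87, 233.89 and 188.06 TPM in PLM, and the groups overlapped. Its log2 fold change was -0.19 (95% interval -0.42 to 0.03, limma adjusted p = 0.177), which is near the median of all genes, and it turned to 0.05 on median-centred values (95% interval -0.22 to 0.33, limma adjusted p = 0.852).

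Lpl, the lipase that releases fatty acids from the triglycerides of lipoproteins, was at 5.61, 10.4 and 6.68 TPM in SNI and at 3.98, 5.19 and 7.37 TPM in PLM. The groups overlapped, and the log2 fold change of -0.39 had a wide 95% interval from -1.02 to 0.24 (limma adjusted p = 0.308). It was -0.16 without SNI replicate 2, -0.21 without PLM replicate 1 and -0.59 without PLM replicate 3. On median-centred values it was -0.14, with 0.088 without SNI replicate 2, -0.33 without SNI replicate 1 and -0.31 without PLM replicate 3. In JA Lpl was at 4.74, 6.08 and 12.39 TPM. Within each group the sample with the highest Lpl (JA replicate 3, SNI replicate 2 and PLM replicate 3) was also the one with the highest level of Schwann cell markers, with a mean log2(TPM + 1) over 6 genes of 6.03, 5.56 and 5.34, against 2.27 to 4.55 in the other 6 samples. The list of meningeal and fibroblast markers was highest in the same 3 samples within their groups, at 5.11, 4.45 and 3.82. The part of these markers in the level of Lpl was not tested.

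**Figure D2:**
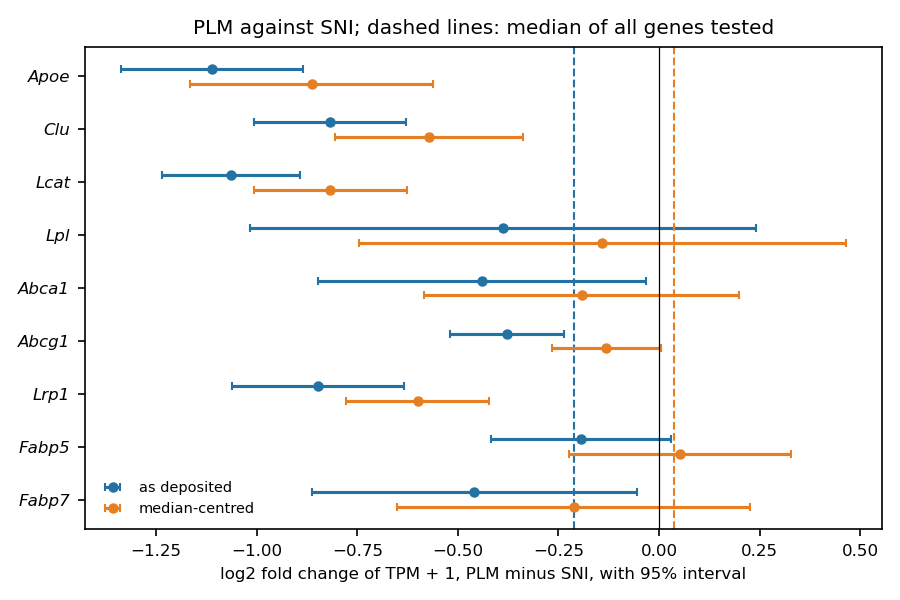
Log2 fold change of TPM + 1 in PLM versus SNI (horizontal axis) for each of the 9 genes, as points with the 95% interval from limma, on values as deposited (blue) and median-centred (orange), with dashed lines at the median of all genes tested. Apoe, Clu, Lcat and Lrp1 lie well below both dashed lines, at -0.82 or lower as deposited, while the intervals of Lpl, Abca1, Abcg1, Fabp5 and Fabp7 on median-centred values cross 0.

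Within the same samples the 9 genes were also set against the astrocyte markers, as log2(TPM + 1) of the gene minus the mean of the 12 markers. This difference was higher by mean in PLM than in SNI for all 9 genes, as it was for 99% of all genes tested, by 0.22 for Apoe, 0.26 for Lcat, 0.48 for Lrp1 and 0.51 for Clu, and by 0.87 to 1.13 for Fabp7, Abca1, Lpl, Abcg1 and Fabp5. For Apoe the difference was 5.31, 5.28 and 5.53 in SNI and 5.68, 5.49 and 5.59 in PLM, so that the groups overlapped, and for the other 8 genes all 3 PLM samples lay above all 3 SNI samples, as they did for 93% of all genes tested. These shares are near those of all genes, so the counts are not a result about the 9 genes. Between the PLM and SNI means this difference shifted least for Apoe and Lcat and most for Fabp5. Within JA the difference of Lcat was -2.47, -1.97 and -1.56 in replicates 1, 2 and 3 (SD 0.46). For Apoe it was 5.43, 5.55 and 5.66 (SD 0.11), so the small shift of Lcat was not matched across the JA samples. The part of the astrocyte content of the samples in these results was not tested.

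**Figure D3:**
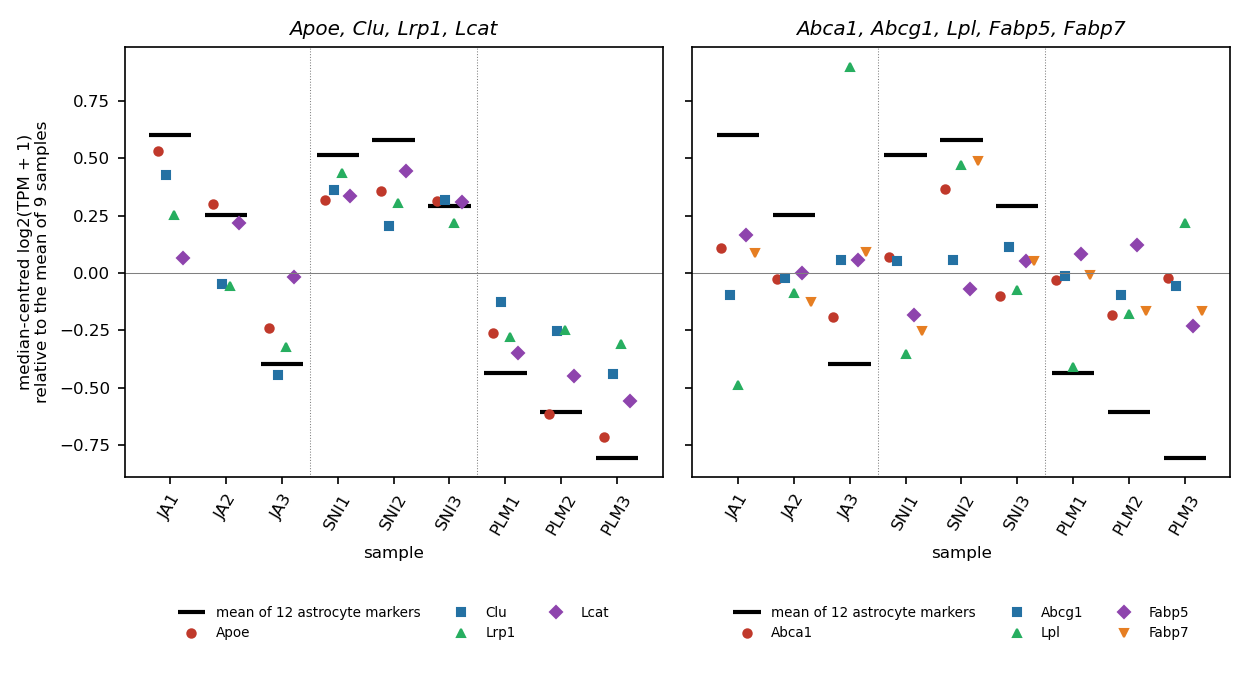
Median-centred log2(TPM + 1) of the 9 genes in each sample (horizontal axis), relative to each gene's mean over the 9 samples, with black bars for the mean of the 12 astrocyte markers. Apoe, Clu, Lrp1 and Lcat (left) are low in the 3 PLM samples and in JA replicate 3, or for Lcat near its mean there, as the bars are low, while the genes on the right show no such common pattern and Lpl peaks in JA replicate 3.

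RefSeq promoter windows (GRCr8, 250 bases before to 50 bases after a start site) were found for 5 of the 9 genes, Apoe, Abca1, Lrp1, Lcat and Fabp7. The windows of the 3 genes called lower on both scales are shown here, each read 5′ to 3′ on the strand of the gene. Capitals mark GC boxes, the letters GGGCGG on either strand, and of the 3 Apoe windows the one printed was chosen because it holds such boxes. The windows lie on the minus strand at chr1:88484650-88484949 (Apoe), chr7:65346147-65346446 (Lrp1) and chr19:50748015-50748314 (Lcat).
Apoe: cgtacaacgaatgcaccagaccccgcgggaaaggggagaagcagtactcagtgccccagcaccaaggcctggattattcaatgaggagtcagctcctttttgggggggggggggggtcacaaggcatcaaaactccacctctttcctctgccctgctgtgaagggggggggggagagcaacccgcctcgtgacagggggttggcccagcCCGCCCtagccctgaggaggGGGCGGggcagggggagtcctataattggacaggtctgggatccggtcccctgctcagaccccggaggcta
Lrp1: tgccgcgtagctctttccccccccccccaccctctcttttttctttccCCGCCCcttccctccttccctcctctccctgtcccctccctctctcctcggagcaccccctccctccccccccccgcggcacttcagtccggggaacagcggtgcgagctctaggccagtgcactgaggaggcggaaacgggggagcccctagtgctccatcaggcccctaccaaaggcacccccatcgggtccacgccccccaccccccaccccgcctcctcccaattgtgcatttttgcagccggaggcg
Lcat: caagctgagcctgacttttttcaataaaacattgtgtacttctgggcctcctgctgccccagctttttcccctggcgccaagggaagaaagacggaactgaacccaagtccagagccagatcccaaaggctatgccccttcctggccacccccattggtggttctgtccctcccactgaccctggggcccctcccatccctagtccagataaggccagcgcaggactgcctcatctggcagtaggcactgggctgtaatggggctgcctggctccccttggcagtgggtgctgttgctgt
The Lrp1 window held 1 GC box and the Lcat window none, where 33.1% of all 33469 windows held at least 1. The printed Apoe window held 2, by the choice made, a second Apoe window overlaps it and holds the same 2, and the remaining Apoe window (chr1:88485767-88486066) held no GC box, TATA-like match or CCAAT. The printed Apoe window also held a TATA-like match (TATAAN on either strand, in 26.2% of windows), and the windows of Lrp1 and Lcat held none. That match starts at base 250 of 300 in the printed window, at its annotated start site, and at base 71 in the overlapping window. All 3 printed windows held CCAAT on either strand, as did 37.5% of windows, and in Apoe it overlapped the TATA-like match. None of the 3 held AGGTCA, the half-site of several nuclear receptors, on either strand, which 16.2% of windows hold. The GC content was 63.7% for Apoe, 68.3% for Lrp1 and 58.7% for Lcat. These matches describe the letters of the windows.

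The comparison of SNI with JA asks what nerve injury changed. None of the 9 genes was called in limma at an adjusted p-value under 0.05, on values as deposited or median-centred, and 0 of all 15557 genes were (0%). At an unadjusted p-value under 0.05, 3 of the 9 were higher in SNI as deposited (Abcg1, Lrp1 and Lcat), against 6.11% of all genes, and Lcat alone on median-centred values, where 4.83% of all genes were past this level in either direction. By the thresholds of the study none of the 9 was called, against 0.688% of all genes. Every SNI sample was above every JA sample for Lcat and Abcg1, 2 of 9 against 12.1% of all genes.

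Lcat was at 16.67, 17.4 and 13.88 TPM in JA, all below its SNI samples. Its mean was 16.0 ± 1.86 TPM in JA and 21.3 ± 1.20 TPM in SNI (SD, n = 3), and the log2 fold change was 0.40 (95% interval 0.13 to 0.66, limma adjusted p = 0.614), and 0.28 on median-centred values (limma adjusted p = 0.889). Abcg1 was at 23.57, 23.2 and 23.35 TPM in JA, again below SNI, with a log2 fold change of 0.22 (95% interval 0.04 to 0.40, limma adjusted p = 0.614), which became 0.10 on median-centred values.

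Apoe was at 4227.79, 3375.84 and 2206.69 TPM in JA replicates 1, 2 and 3, a range that held all 3 SNI samples. The log2 fold change of 0.26 (95% interval -0.27 to 0.79, limma adjusted p = 0.669) was -0.0015 without JA replicate 3, the sample with the lowest astrocyte markers of its group, and 0.47 without JA replicate 1. Clu was at 837.44, 563.16 and 406.92 TPM in JA and Lrp1 at 24, 17.85 and 13.94 TPM, with JA replicate 1 highest and replicate 3 lowest for both. Clu had a log2 fold change of 0.44 (95% interval -0.14 to 1.02, limma adjusted p = 0.614), which was 0.19 without JA replicate 3 and 0.71 without JA replicate 1. Lrp1 had a log2 fold change of 0.48 (95% interval 0.03 to 0.94, limma adjusted p = 0.614), which was 0.30 and 0.68 without the same samples. Abca1 was at 2.04, 1.59 and 1.2 TPM in JA, with a log2 fold change of 0.27 (limma adjusted p = 0.646) that ranged from 0.14 to 0.39 with 1 sample left out. Fabp7 (267.53, 216.21 and 239.27 TPM in JA) and Fabp5 (277.1, 231.56 and 228.73 TPM) had log2 fold changes of 0.20 and -0.02, and their groups overlapped. That of Fabp7 was 0.010 without SNI replicate 2. For Lpl it was 0.03 (95% interval -0.80 to 0.86, limma), with a sign that turned on median-centred values (-0.092), after rescaling without the mitochondrial genes (-0.050) and after quantile normalization (-0.089). With 1 sample left out, the value of Lpl as deposited ran from -0.22 to 0.39.

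The comparison of PLM with JA sets the treated injured cord against the uninjured one. None of the 9 genes was called in limma at an adjusted p-value under 0.05 on either scale, against 0.0195% of all 15349 genes as deposited and 0.013% median-centred. At an unadjusted p-value under 0.05, 3 of the 9 were lower in PLM as deposited (Apoe, Fabp7 and Lcat), against 10.5% of all genes, and Apoe and Lcat were on median-centred values, where 9.98% of all genes were past this level in either direction. By the thresholds of the study none of the 9 was called, against 0.938% of all genes. Every PLM sample was below every JA sample for Apoe, Abcg1, Fabp7 and Lcat, 4 of 9 against 15.7% of all genes.

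The mean TPM of Lcat in PLM was 0.605 of that in JA, and its log2 fold change was -0.67 (SE 0.11, 95% interval -0.92 to -0.41, limma adjusted p = 0.226), and -0.54 on median-centred values (95% interval -0.77 to -0.31, limma adjusted p = 0.336). That of Apoe was 0.537 of the JA mean, and its log2 fold change was -0.85 (SE 0.23, limma adjusted p = 0.342), and the smallest adjusted p-value with 1 sample left out was 0.0749 for Apoe and 0.0626 for Lcat, both without JA replicate 3. The log2 fold changes of the other 7 genes lay between -0.38 (Clu) and -0.16 (Abcg1), all below 0, as were 71.2% of all genes tested, and on median-centred values between -0.25 (Clu) and -0.04 (Abcg1), where 43.7% of all genes were below 0. As deposited, without JA replicate 1 and without JA replicate 3 the value was -0.11 and -0.63 for Clu, -0.17 and -0.54 for Lrp1, and -0.054 and -0.29 for Abca1. The 3 comparisons share samples in pairs, so their values are given side by side and no overlap between them is read as a result. For Lcat these values on median-centred data were 0.28 in SNI versus JA, -0.82 in PLM versus SNI and -0.54 in PLM versus JA, and for Apoe they were 0.14, -0.86 and -0.73.

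**Figure D4:**
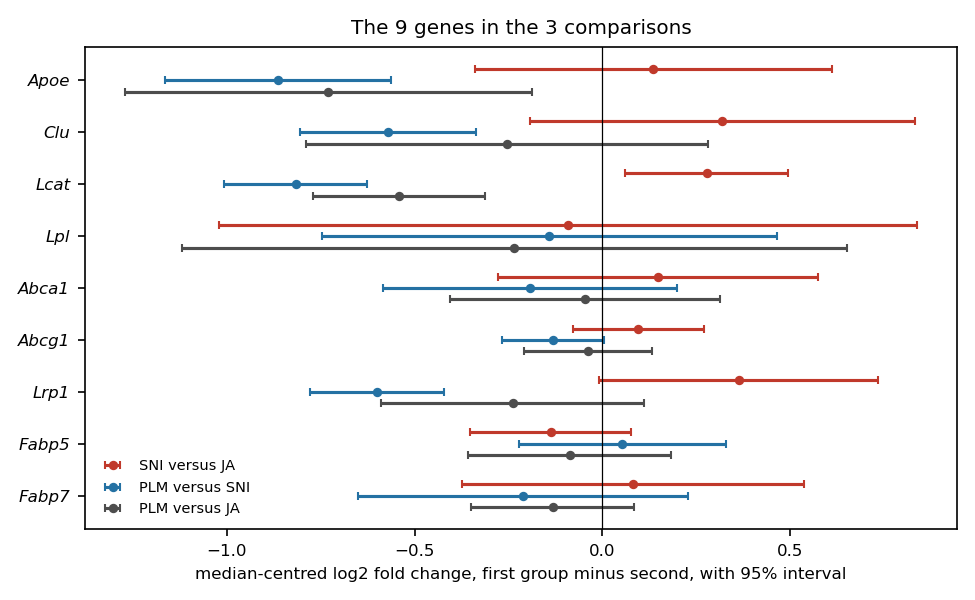
Median-centred log2 fold change (horizontal axis) of the 9 genes in SNI versus JA, PLM versus SNI and PLM versus JA, with 95% intervals from limma. Lpl has the widest intervals in all 3, and the PLM versus SNI intervals of Apoe, Clu, Lcat and Lrp1 lie wholly below 0.

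Among themselves the 9 genes were compared by the root mean square difference of their median-centred log2 profiles over the 9 samples, each relative to its own mean. Clu and Lrp1 were the most alike pair, at 0.11, and Apoe and Lcat differed by 0.20. Lpl and Apoe were the least alike, at 0.68. The genes differed in how much they varied, from an SD of 0.07 for Abcg1 and 0.14 for Fabp5 to 0.45 for Lpl and 0.46 for Apoe. The same measure over 13944 loci gave the profiles nearest to 8 of the 9 genes. They were Tst, Prdx6 and the locus AABR07072748.1 for Apoe (0.07, 0.08 and 0.10), Aldoc, Cntfr and Lsamp for Clu (0.05, 0.06 and 0.08), and Ahcyl1, Adcyap1r1 and Adgrg1 for Lrp1 (0.07, 0.07 and 0.08). Those nearest to Lpl were Ctnnal1, Sema5a and Lama2 (0.07, 0.09 and 0.11). For Fabp7 they were Rida, Ppp1r14c and LOC498675, for Fabp5 Ndor1, Xpo6 and Ecd, for Abcg1 Cyb5r1, Snx14 and Zkscan3, and for Abca1 Bhlhe40, the locus AABR07008030.1 and Arl5a. These values describe the 9 samples, which share their libraries across all genes.

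A list of 78 other genes of lipid transport was written from general knowledge, with earlier results of these data known. It held further apolipoproteins, receptors, transporters, lipases, intracellular carriers and their regulators, and 76 were in the table. In PLM versus SNI 58 had enough TPM to be tested. Of these, 17 were called lower and 0 higher on values as deposited, 29.3% against 13.9% of all genes tested, and 2 on median-centred values, 3.45% against 0.814%. The count moved with every sample: as deposited it was 2, 10 and 4 without SNI replicates 1, 2 and 3, and 3, 3 and 9 without PLM replicates 1, 2 and 3. The share of all genes called in these smaller fits is not given, so these moves are not a result about the list. The list's median log2 fold change was -0.31, and -0.06 on median-centred values.

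Of the genes called, the largest differences were those of Pla2g7, Slc27a1 and Soat1. Pla2g7, the lipoprotein-associated phospholipase A2, fell from 130 ± 10.01 to 46.0 ± 5.32 TPM (SD, n = 3), where limma gave a log2 difference of -1.48 (adjusted p = 0.00396) and -1.23 on median-centred values (limma adjusted p = 0.0263). Slc27a1, a fatty acid transport protein, fell from 41.9 ± 3.96 to 19.5 ± 0.531 TPM, where limma gave -1.06 (adjusted p = 0.00477), or -0.81 on median-centred values (limma adjusted p = 0.0263). Soat1, which esterifies cholesterol inside the cell, fell from 4.36 ± 0.290 to 2.39 ± 0.584 TPM (limma log2 fold change -0.68, adjusted p = 0.0354), and was not called on median-centred values (limma adjusted p = 0.185). Apod, another apolipoprotein of glia, had a mean of 3087 TPM in SNI and of 2797 TPM in PLM, with a log2 fold change of -0.14 (limma adjusted p = 0.175), and is named here after its value was seen because its level was near that of Apoe. In SNI versus JA and in PLM versus JA none of the 58 genes tested was called in limma. At an unadjusted p-value under 0.05 there were 1 lower and 2 higher in the first, against 0.99% and 6.11% of all genes, and 13 lower and 0 higher in the second, against 10.5% and 1.3%.

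**Figure D5:**
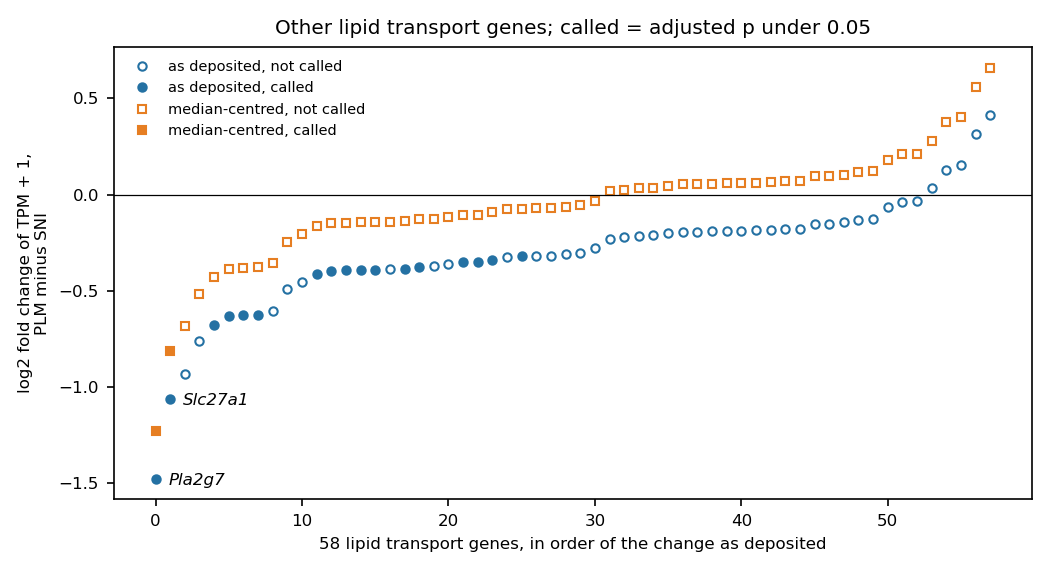
Log2 fold change of TPM + 1 in PLM versus SNI (vertical axis) of the 58 other lipid transport genes tested, in order of the change, as deposited (blue circles) and median-centred (orange squares), with filled symbols for genes called at an adjusted p-value under 0.05. On values as deposited 17 are filled, and on median-centred values only Pla2g7 and Slc27a1.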

How the data were processed

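RNA of 9 samples (3 each of JA, SNI and PLM) was sequenced by the authors, who removed adaptors and low-quality reads, used HISAT2 version 2.0 for mapping and StringTie version 1.3.3b to compute expression. The submitters' processing notes also name fastp version 0.19.5 and CASAVA. They list GRCh38.p13, a human build, while the identifiers are those of rat genes, so the build of the files is not settled and no coordinates of the files are given. The authors deposited TPM values with 2 decimals, identified as TPM from the column totals. They hold no read depth, so the tests for counts that the study used (DESeq2) were not run.

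Groups were compared in pairs with limma version 3.58.1 (R version 4.3.3) on log2(TPM + 1), allowing the variance to follow the mean level and adding no covariate. Loci under 1 TPM on average in the 6 samples of a comparison were left out. Fold changes on this scale understate the change of low genes. Errors are SD over 3 samples. For median-centred values, each sample's median over the genes tested was set to the common mean. The alternatives were other scalings, filters, a pseudocount of 0.1, all 9 samples in 1 fit, a replicate block, no variance trend, the thresholds of the study, and leaving out each sample. Leaving out each sample on median-centred values was added after seeing the data.

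The 9 genes and all lists were chosen with earlier results of these data known. All 9 genes are named. Of the lipid transport list, the 3 largest changes in each direction past the adjusted threshold are named, and for likeness the 3 nearest loci of each gene, by root mean square difference, among loci that averaged 1 TPM or more (those of Lcat are not reported here). Marker lists were also taken for oligodendrocyte precursors (0 of 3 called in PLM versus SNI), Schwann cells (0 of 6), endothelium (0 of 5), meninges and fibroblasts (0 of 4), ependyma (0 of 3) and blood (0 of 4). Of all genes tested 13.9% were called as deposited. Lipid, protein and behaviour measurements were not analysed here.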

Additional observations from a re-analysis of the deposited data

How the results depend on the processing

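In PLM versus SNI the number of the 9 genes called lower was 5, against 13.6% of all genes tested. It was 3 on median-centred values (against 0.685%), 3 with the replicate block, 0 with the replicate block on median-centred values, and 2 by the thresholds of the study (against 1.42%). With the block, Lrp1 (adjusted p = 0.0525, limma) and Abcg1 (adjusted p = 0.117, limma) were not called. With each sample left out it ranged from 4 to 5 as deposited and from 0 to 2 on median-centred values, where fewer samples were fitted. The number of other lipid transport genes called was 17, against 13.9% of all genes tested, or 0.814% on median-centred values. The number was 2 on median-centred values, 2 after rescaling without the mitochondrial genes, 3 after quantile normalization, 9 with no filter, 7 with all 9 samples in 1 fit, 2 with the replicate block, 0 with the block on median-centred values, 10 without a variance trend, and 2 by the thresholds of the study. With a sample left out it ranged from 2 to 10, and from 0 to 2 on median-centred values. The share of all genes called is not given for the other settings, so these counts cannot tell whether the listed genes or all genes moved. The cause of these moves was not tested. Clu was also not called with all 9 samples in 1 fit (adjusted p = 0.0623, limma), and Abcg1 was not called after rescaling without the mitochondrial genes (adjusted p = 0.101, limma) or after quantile normalization (adjusted p = 0.254, limma), which left 4 of the 9 called in each.

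Of the genes that were not called, some changed sign. Fabp5 in PLM versus SNI went from -0.19 to 0.053 on median-centred values, with and without the replicate block. Lpl in SNI versus JA went from 0.03 to -0.092 on median-centred values, with and without the block, -0.050 after rescaling and -0.089 after quantile normalization. With a sample left out, as deposited or median-centred, the log2 fold changes in PLM versus SNI ranged from -0.59 to 0.088 for Lpl and from -0.27 to 0.16 for Fabp5. In SNI versus JA they ranged from -0.085 to 0.47 for Apoe, from -0.39 to 0.39 for Lpl, from -0.20 to 0.073 for Fabp5 and from -0.12 to 0.36 for Fabp7. In PLM versus JA they ranged from -0.29 to 0.026 for Abca1, from -0.19 to 0.0023 for Abcg1, from -0.61 to 0.16 for Lpl and from -0.28 to 0.025 for Fabp5.

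The deviations of same-numbered PLM and SNI samples from their group means had correlations across genes of 0.03, -0.02 and -0.0081. They were 0.13, -0.05 and 0.06 for SNI and JA, and -0.02, -0.01 and 0.10 for PLM and JA. With 3 samples a group, these values cannot decide whether same-numbered samples were handled together, which was not tested. With no depth in TPM, the limit that counting sets on low genes such as Abca1 is unknown.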
